A study of Mus musculus with 4 samples.

Results

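Genes of granulocyte granule proteins were followed in macrophages grown from mouse bone marrow. The rule took 10 symbols from the 16375 genes listed with an FPKM value (fragments per kilobase of gene and per 1000000 fragments), and all 10 were found. Of them, 4 encode proteins of azurophil granules (Mpo, Elane, Prtn3 and Ctsg), 4 encode proteins of specific or later granules (Ltf, Camp, Ngp and Lcn2), and 2 are S100a8 and S100a9, whose products are abundant in neutrophils but lie in the cytosol rather than in a granule. The rule used symbols only and no measured value.

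The cells were bone marrow-derived macrophages (BMDMs), that is, bone marrow cells cultured with macrophage colony-stimulating factor (M-CSF). They came from wild-type (WT) C57BL/6 mice or from lncLy6c knockout (LNCKO) mice, in which CRISPR-Cas9 removed the gene of the long non-coding RNA lncLy6c on a C57BL/6J background. Cells were exposed for 24 h to 500 µM butyrate, a short-chain fatty acid made by gut bacteria, or were left without it as control. Control and butyrate cells of WT and of LNCKO gave 4 groups with 1 library each, so every difference given here compares 2 libraries, no test across replicates was possible, and no value has an SD. The deletion is carried by both LNCKO groups in every cell of the mouse and not in macrophages alone. Wherever 4 values of a gene follow each other, they are in the order control and butyrate of WT, then control and butyrate of LNCKO. Mice are described as young and of either sex, and the animals behind each library are not given in the sources used here.

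Neutrophils store their antimicrobial proteins in granules that are filled in sequence. Azurophil, or primary, granules form at the promyelocyte stage and take up myeloperoxidase and serine proteases, while specific and gelatinase granules form later, from the myelocyte stage on, and take up lactoferrin, cathelicidin and lipocalin 2. Transcription of the genes follows the same order, so that early and late genes mark earlier and later granulocyte precursors in bone marrow, and the azurophil genes are also transcribed in early monocyte precursors. Factors of the C/EBP, PU.1, RUNX and MYB families are known regulators of this program.

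The libraries held 53363944 to 65521713 fragments, and the 10 genes took 0.632% to 0.862% of them. Macrophage genes were expressed in every library. All 11 listed for this check (among them Csf1r, Cd68 and C1qa) had a mean FPKM over the 4 libraries of at least 1, as had 6809 genes in all. Their summed FPKM was 1065 to 1238 per library, with Mertk (1.23 to 1.39) and Mrc1 (1.38 to 1.65) little above 1. The inflammatory monocyte gene Ly6c2 stood at 728 to 916 FPKM, so these genes alone do not settle the identity of the cells. Cells of other kinds were present too, since the 7 B cell genes summed to 164 to 216 FPKM, with Cd79a at 51.3 to 69.3 FPKM, and the eosinophil gene Prg2 stood at 14.7 to 25.7 FPKM. In such bulk RNA, fewer granulocyte precursors and less granule mRNA per precursor cannot be told apart. The Y-linked gene Ddx3y had 65 and 49 fragments in WT against 6128 and 7764 in LNCKO, and therefore genotype and the sex of the animals cannot be told apart in any comparison of LNCKO with WT. The lncLy6c transcript is not listed under that name and was not analysed here.

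Stretches of sequence before a transcript start of 5 members are given because they show where these genes differ in the letters that known regulators prefer. In windows of 300 bases of RefSeq promoters on GRCm38.p6 (250 before to 50 after the start), read on both strands, the C/EBP letters TTGCNNAA were found in 0 of 4 azurophil members, in 3 of 4 specific members (Ltf, Ngp and Lcn2) and in S100a9, against 10.8% of all 32851 windows. The PU.1 letters AGGAAG were found in 8 of 10 members, including all 4 azurophil genes, against 35.4% of windows. MYB letters TAACNG were found in Mpo and Elane (23.3% of windows) and RUNX letters TGTGGT in Ctsg, Ltf and S100a9 (16.8% of windows). The motifs were chosen after the data were seen, and a match describes letters, not binding. The stretches printed hold no annotated exon, end at the base before an annotated transcript start, run 5′ to 3′ on the strand of the gene, and carry matches in capitals, no 2 of which overlap. For Elane, Ltf, Ngp and S100a9 that start is also the annotated start of the gene, whereas for Prtn3 another annotated transcript starts farther upstream, at 79874476, so that its stretch lies in an intron of that transcript.
Elane, chr10:79886062-79886246, plus strand, 185 bases, with 1 PU.1 match
Elane: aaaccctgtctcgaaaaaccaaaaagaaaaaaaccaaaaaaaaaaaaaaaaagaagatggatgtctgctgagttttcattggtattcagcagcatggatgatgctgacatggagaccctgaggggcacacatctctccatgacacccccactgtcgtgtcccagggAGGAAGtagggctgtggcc
Prtn3, chr10:79879417-79879613, plus strand, 197 bases, with 2 PU.1 matches
Prtn3: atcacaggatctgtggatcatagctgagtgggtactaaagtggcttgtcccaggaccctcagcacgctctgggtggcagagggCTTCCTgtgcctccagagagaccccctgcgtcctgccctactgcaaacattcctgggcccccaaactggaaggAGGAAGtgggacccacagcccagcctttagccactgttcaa
Ltf, chr9:111019042-111019270, plus strand, 229 bases, with 1 PU.1 and 1 C/EBP match
Ltf: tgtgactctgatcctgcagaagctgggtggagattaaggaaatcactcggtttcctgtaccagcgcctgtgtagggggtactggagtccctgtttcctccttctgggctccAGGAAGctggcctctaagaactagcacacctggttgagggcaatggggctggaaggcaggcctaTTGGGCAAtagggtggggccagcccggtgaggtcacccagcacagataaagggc
Ngp, chr9:110419558-110419746, plus strand, 189 bases, with 1 of the 2 C/EBP matches of its window
Ngp: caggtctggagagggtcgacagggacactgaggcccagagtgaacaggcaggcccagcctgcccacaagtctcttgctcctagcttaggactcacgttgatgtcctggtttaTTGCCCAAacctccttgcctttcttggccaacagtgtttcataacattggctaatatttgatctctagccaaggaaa
S100a9, chr3:90695722-90695971, minus strand, 250 bases, with 1 C/EBP and 1 RUNX match
S100a9: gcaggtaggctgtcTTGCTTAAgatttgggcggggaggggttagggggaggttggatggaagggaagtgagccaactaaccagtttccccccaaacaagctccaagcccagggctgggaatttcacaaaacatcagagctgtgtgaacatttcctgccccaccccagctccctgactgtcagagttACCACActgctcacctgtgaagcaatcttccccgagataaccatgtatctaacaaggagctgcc
The azurophil stretches printed (Elane and Prtn3) thus hold PU.1 letters without C/EBP letters. Those of Ltf, Ngp and S100a9 each hold C/EBP letters, and that of Ltf holds PU.1 letters too. Camp and S100a8, late genes that are not printed, had no C/EBP match and 2 PU.1 matches each in their windows. These letters therefore do not separate all early from all late members.

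Several members are neighbours in the genome (GRCm38, GENCODE M21). Prtn3 (chromosome 10, 79874476 to 79883174) and Elane (chromosome 10, 79886247 to 79888215) lie on the plus strand with 3072 bases between them. Camp (109847379 to 109849617, minus strand), Ngp (110419747 to 110423012, plus strand) and Ltf (111019271 to 111042767, plus strand) follow each other on chromosome 9, with 570129 bases from Camp to Ngp and 596258 from Ngp to Ltf. S100a8 (90668978 to 90670035, plus strand) and S100a9 (90692632 to 90695721, minus strand) are 22596 bases apart on chromosome 3. Mpo (chromosome 11, 87793581 to 87804413, plus strand), Ctsg (chromosome 14, 56099881 to 56102574, minus strand) and Lcn2 (chromosome 2, 32384633 to 32388252, minus strand) lie alone. Exons of Prtn3 share 159 bases with Plppr3 and those of Mpo share 512 bases with the antisense gene Gm11505, both on the opposite strand, and whether the counting used strand is not given in the sources used here. Plppr3 had 2963 to 3844 fragments against 22084 to 29102 for Prtn3.

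All 10 genes were well measured, with mean FPKM from 18.8 (Ltf) to 1111 (S100a8) and from 4869 to 157580 fragments per gene and library. FPKM was computed by the authors on the whole genomic span, introns included. The summed FPKM of a list is on that span too, so genes of short span weigh most and sums are not comparable between lists. Levels of the 10 members were compared between genes only as fragments per kilobase of exon and per 1000000 fragments. On that scale the WT control library had S100a9 highest at 3638, then S100a8 at 1808 and Ngp at 1088. The azurophil genes followed, with Elane at 348, Mpo at 292, Prtn3 at 226 and Ctsg at 189. Lcn2 at 152, Ltf at 151 and Camp at 149 were last and close to each other, so late granule genes stood at both ends of the order. The calprotectin pair S100a8 and S100a9, which is also made by monocytes, therefore led the list in cells labelled as macrophages.

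**Figure D1:**
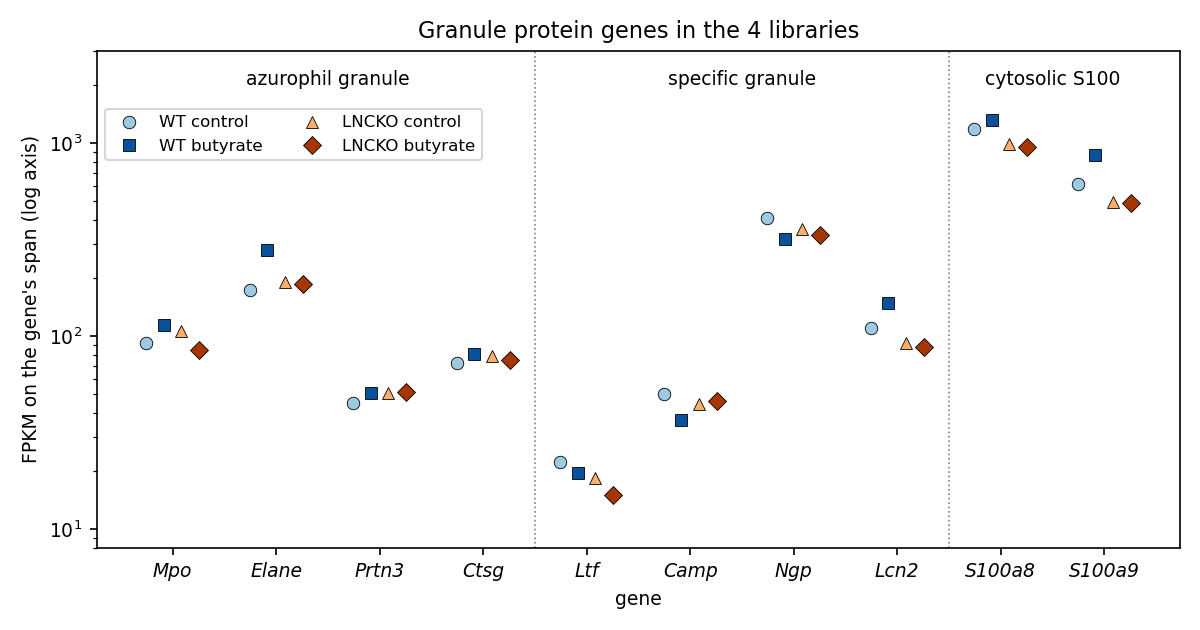
FPKM (log axis) of the 10 genes in the 4 libraries, 1 point per library, grouped as azurophil, specific and cytosolic S100 genes. Elane stood at 278 in WT butyrate and at 174 to 190 in the other libraries, while Camp and Ngp were lowest in WT butyrate; FPKM is per genomic span, so heights are not comparable between genes.

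Among the azurophil genes, Elane, which encodes neutrophil elastase, moved most. Its FPKM values were 174 without and 278 with butyrate in WT and 190 and 186 in LNCKO, so that WT butyrate stood apart and the other libraries lay close together. Mpo, the gene of myeloperoxidase, which makes hypochlorous acid, had FPKM values of 92.3, 115, 106 and 84.6. It was highest in WT butyrate and lowest in LNCKO butyrate. Prtn3, the gene of proteinase 3, stood at 45.0, 50.7, 50.6 and 51.1 FPKM, and Ctsg, the gene of cathepsin G, at 72.5, 80.4, 78.8 and 75.1 FPKM. Both genes varied little, with a ratio of highest to lowest library of 1.11 for Ctsg against 1.60 for Elane and 1.36 for Mpo. Elane, Prtn3 and Ctsg were lowest in WT control.

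The specific granule genes did not share 1 order. Ltf, the gene of lactoferrin, an iron-binding protein, had FPKM values of 22.1 and 19.5 in WT and 18.4 and 15.1 in LNCKO, lower with butyrate in each. Camp, the gene of cathelicidin, stood at 50.3, 36.7, 44.2 and 45.9 FPKM, and Ngp, the gene of neutrophilic granule protein, a cystatin-like protein, at 407, 319, 360 and 332 FPKM. These 3 genes were highest in WT control, and Camp and Ngp were lowest in WT butyrate. Lcn2, whose product binds bacterial siderophores, had 110, 148, 92.3 and 88.0 FPKM, with its highest value in the library where Camp and Ngp had their lowest. S100a8 stood at 1186, 1316, 984 and 957 FPKM and S100a9 at 615, 862, 493 and 490 FPKM, so that both were highest in WT butyrate and lower in both LNCKO libraries than in both WT libraries. Lcn2, S100a8 and S100a9 had the same order of the 4 libraries.

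The first comparison asked what butyrate does to these genes in WT cells. Changes are given as log2 of the ratio of FPKM + 1, and read against the 6809 genes whose mean FPKM reached 1. Their median change here was -0.04 and their central 95% ran from -0.33 to 0.34. Among the 928 genes whose mean FPKM reached 15, as that of every member did, the central 95% was wider, from -0.37 to 0.52. All 4 azurophil genes were higher with butyrate, at 0.68 for Elane, 0.31 for Mpo, 0.17 for Prtn3 and 0.15 for Ctsg (median 0.24), where 36.9% of all genes were higher and 63.1% were lower. Of the specific genes, 3 of 4 were lower, at -0.44 for Camp, -0.35 for Ngp and -0.18 for Ltf, and Lcn2 was higher at 0.42 (median -0.26). S100a9 was higher by 0.49 and S100a8 by 0.15. The median of the azurophil genes exceeded that of the specific genes by 0.50.

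By size, Elane ranked 38, S100a9 80 and Lcn2 109 from the highest change among 6809 genes with butyrate in WT, whereas Ngp ranked 6660 and Camp 6746. A change of at least 1.2-fold upward was seen in 4 of 10 members (Mpo, Elane, Lcn2 and S100a9; 4.35% of all genes) and downward in 2 (Camp and Ngp; 5.36% of all genes). The ratio of FPKM was 1.60 for Elane, with a 95% exact interval of 1.57 to 1.63, and 0.730 for Camp, with an interval of 0.703 to 0.758. These intervals come from the fragments of 2 libraries without molecular identifiers, cover counting error only, and say nothing of the spread between cultures. No member passed 2-fold in either direction, a size reached upward by 0.264% and downward by 0.0734% of all genes. The medians of the specific genes rest on which genes are called late: with S100a8 and S100a9 added, 3 of 6 late genes were higher and 3 lower, their median was -0.013, and the azurophil excess was 0.25.

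In LNCKO cells, the same exposure to butyrate gave values nearer 0 in all members but Mpo and Ltf. The central 95% of the 6809 genes was also narrower here, from -0.19 to 0.21 around a median of -0.01. Of the azurophil genes, 3 of 4 were lower, at -0.32 for Mpo, -0.07 for Ctsg and -0.04 for Elane, and Prtn3 stood at 0.012 (42.2% of all genes were higher and 57.8% lower). Of the specific genes, Ltf at -0.27, Ngp at -0.11 and Lcn2 at -0.07 were lower and Camp was at 0.05, while S100a8 was at -0.04 and S100a9 at -0.0078. Of the 10 members, Mpo and Ltf passed 1.2-fold, both downward (0.867% of all genes), none of the 10 passed it upward (1.57% of all genes), and none passed 2-fold (0.103% higher and 0.0734% lower). Mpo ranked 6775 and Ltf 6751 from the highest change, and the FPKM ratio of Mpo was 0.801 with a counting interval of 0.792 to 0.810.

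The medians of the early and late genes in this comparison were -0.05 and -0.09, a difference of 0.04. Mpo and Elane, both azurophil genes, were thus 0.31 and 0.68 higher with butyrate in WT and were -0.32 and -0.04 in LNCKO. In all, 6 of 10 members had opposite signs in the genotypes with both counting intervals beyond 1 (Mpo, Elane, Ctsg, Camp, Lcn2 and S100a8), as had 14.4% of all 6717 genes of whole fragments and 17.7% of those with at least 4869 fragments in every library, and the difference between the genotypes was not tested. Ltf was lower with butyrate in both genotypes, at -0.18 and -0.27. The counting intervals of the FPKM ratio included 1 for Prtn3 and S100a9 in LNCKO, so no difference was detectable for them at this depth, and that of Prtn3 also included 1 between LNCKO and WT with butyrate.

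**Figure D2:**
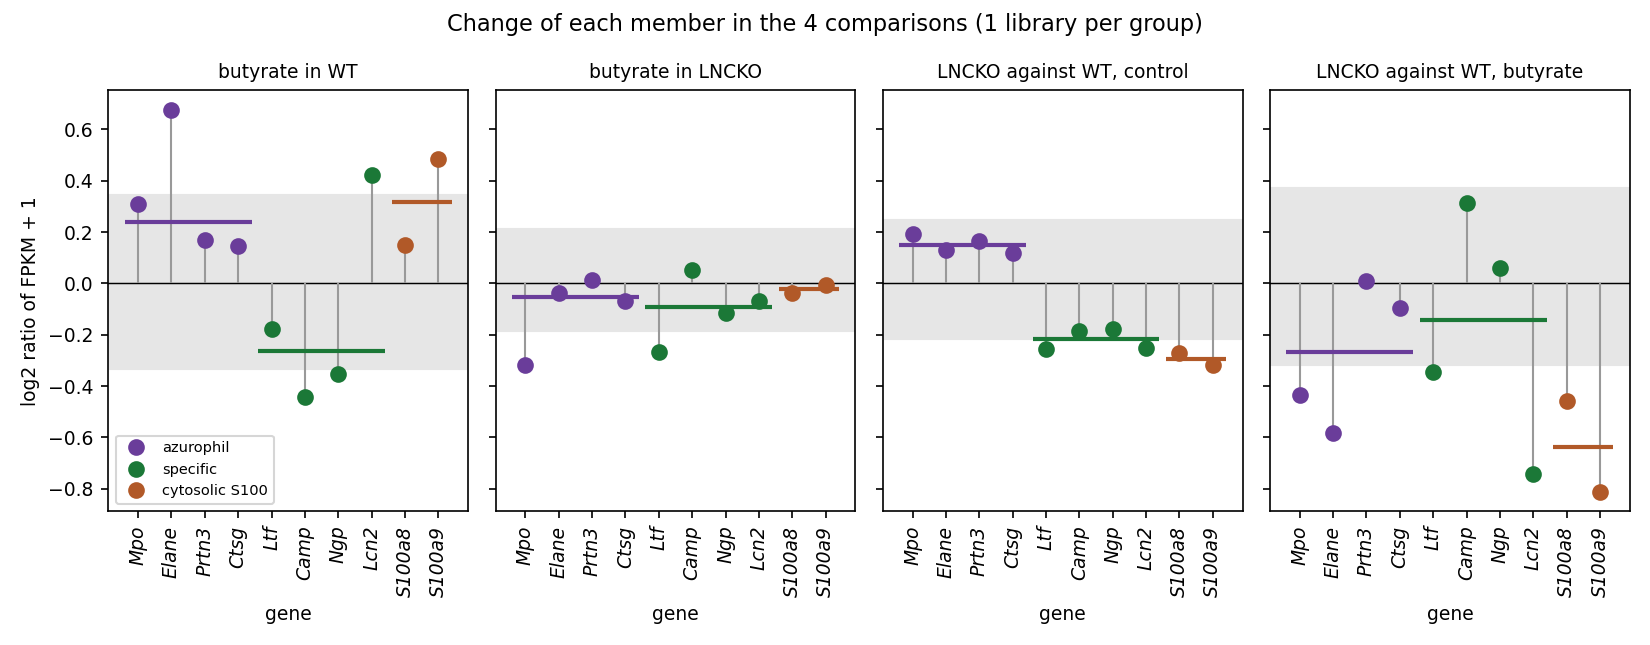
Change of each gene, as log2 of the ratio of FPKM + 1, in the 4 comparisons. Points are single genes, short coloured bars are class medians and the grey band is the central 95% of the 6809 genes whose mean FPKM reached 1. In WT, Elane, Lcn2 and S100a9 lie above the band with butyrate and Camp and Ngp below it. Against the 928 genes whose mean FPKM reached 15 (-0.37 to 0.52, not drawn), only Elane lies above and only Camp below.

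Without butyrate, the early and the late genes of LNCKO cells lay on opposite sides of WT cells. All 4 azurophil genes were higher in LNCKO, from 0.12 for Ctsg and 0.13 for Elane to 0.17 for Prtn3 and 0.19 for Mpo (56.7% of all genes were higher). All 6 late genes were lower, with S100a9 at -0.32, S100a8 at -0.27, Ltf at -0.26, Lcn2 at -0.25, and Camp and Ngp at -0.18 each (43.3% of all genes were lower). The medians were 0.15 for the azurophil and -0.22 for the specific genes, a difference of 0.37, or 0.40 when S100a8 and S100a9 were counted as late. The central 95% of all genes ran from -0.22 to 0.25, so every azurophil gene lay inside it and S100a9, S100a8, Ltf and Lcn2 lay below it. Of the 10 genes, 2 passed 1.2-fold downward (S100a8 and S100a9; 1.64% of all genes), 0 passed it upward (2.14% of all genes), and none passed 2-fold (0.191% higher and 0.0881% lower).

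With butyrate, most members were lower in LNCKO than in WT. S100a9 was at -0.81, Lcn2 at -0.74, Elane at -0.58, S100a8 at -0.46, Mpo at -0.43 and Ltf at -0.35, and each of these 6 passed 1.2-fold downward (4.17% of all genes). Camp was higher at 0.31 and passed 1.2-fold upward (6.18% of all genes). Ngp at 0.06, Prtn3 at 0.0093 and Ctsg at -0.10 differed little. In all, 7 of 10 members were lower, where 35.8% of all genes were lower and 64.2% were higher. The central 95% of all genes ran from -0.32 to 0.37. Among the 928 genes whose mean FPKM reached 15 it ran from -0.45 to 0.36. Mpo and Ltf lay below the first range but inside this one. None of the 10 members passed 2-fold (0.22% higher and 0.25% lower). S100a9 had the largest difference of any member in any of the 4 comparisons, with an FPKM ratio of 0.569 and a counting interval of 0.564 to 0.573, and ranked 6784 of 6809.

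Early and late genes did not separate in the butyrate-treated cells. The median was -0.27 for the azurophil and -0.14 for the specific genes, a difference of -0.12, and the sign of this difference turned to 0.14 when S100a8 and S100a9 were counted as late. Each library takes part in 2 of the 4 comparisons, so the comparisons share libraries and are not independent of each other.

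The balance of early and late genes was also read within each library, where a scaling of the whole library cancels. Fragments of the 4 azurophil genes numbered 108769 without and 144904 with butyrate in WT, and 115846 and 126319 in LNCKO. Fragments of the 4 specific genes numbered 133144, 125252, 108870 and 121957 in the same order. The azurophil to specific ratio was therefore 0.817 in WT control (95% exact interval 0.810 to 0.824), and 1.16 (1.15 to 1.17), 1.06 (1.06 to 1.07) and 1.04 (1.03 to 1.04) in WT butyrate, LNCKO control and LNCKO butyrate. WT control was the only library of the 4 with more specific than azurophil fragments, and its ratio lay 1.27 to 1.42-fold below the others.

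Long and highly expressed genes weigh most in this ratio, since Mpo alone gave 56384 of the azurophil fragments and Ngp gave 74980 of the specific fragments in WT control. With each gene given equal weight as the mean log2 of FPKM, the azurophil genes stood above the specific genes by 0.02 without and 0.49 with butyrate in WT, and by 0.39 in both LNCKO libraries. FPKM is per genomic span, so these gaps can be compared between libraries, not read as levels. The order of WT control and the other libraries was the same as by fragments. On both scales the LNCKO libraries were close to each other.

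Ratios between members of the same class differed as well. Elane, next to Prtn3 on chromosome 10, had 0.873 times the fragments of Prtn3 in WT control and 1.24 times in WT butyrate, and 0.851 and 0.822 times in LNCKO. The ratio of Ngp to Lcn2 fragments was 3.34, 1.95, 3.52 and 3.41, and that of S100a9 to S100a8 was 1.51, 1.91, 1.46 and 1.496. In all 3 ratios WT butyrate stood apart from the other libraries. The members of each pair had changed by unlike amounts with butyrate in WT. Those changes were 0.68 for Elane and 0.17 for Prtn3, -0.35 for Ngp and 0.42 for Lcn2, and 0.49 for S100a9 and 0.15 for S100a8. These ratios therefore restate changes already given and add no separate result. Other pairs within the classes were not computed.

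**Figure D3:**
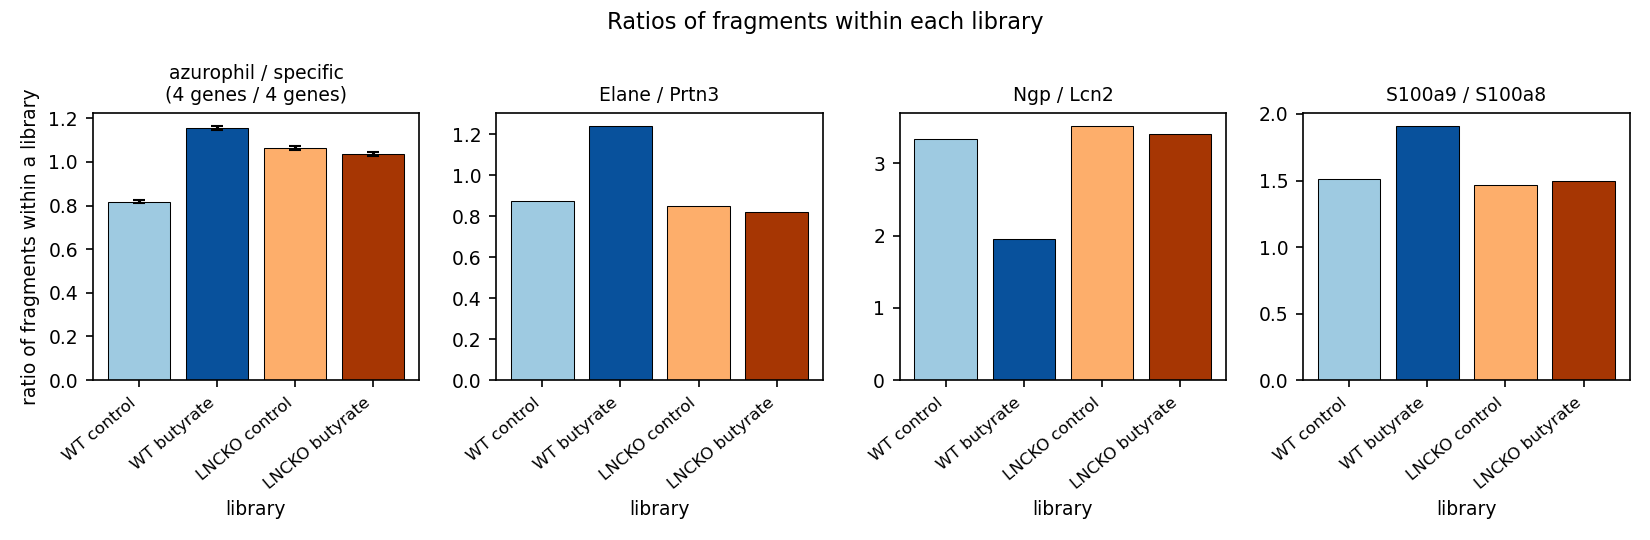
Ratios of fragments in each library, 1 bar per library: azurophil to specific genes (with the 95% exact interval, counting error only), Elane to Prtn3, Ngp to Lcn2 and S100a9 to S100a8. WT control is low (0.817) in the first, and WT butyrate stands apart in the others (1.24, 1.95 and 1.91). Those others pair members whose changes with butyrate in WT differed, so they restate these changes.

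Other genes of the granule program were described from lists, each by its count and median beside the same background. The 8 other early genes had a median of 0.17 with butyrate in WT, with 5 higher and 3 lower (36.9% and 63.1% of all genes), from Nkg7, a granule membrane protein, at 0.53 to Ms4a3, a marker of granulocyte and monocyte precursors, at -0.35. They had medians of -0.07 with butyrate in LNCKO, 0.02 for LNCKO against WT in control cells, and -0.06 for LNCKO against WT with butyrate. Ctsc, the protease that activates the azurophil serine proteases, was at 0.37 with butyrate in WT, and Fcnb, a ficolin, at -0.34.

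A further 19 genes were listed as other late granule genes, and whether the product of each lies in a granule was not checked here. They were higher with butyrate in WT in 14 cases and lower in 5 (36.9% and 63.1% of all genes). Their median was 0.14 beside -0.26 for the specific members. Mmp8, the neutrophil collagenase, had FPKM values of 60.9, 135, 60.8 and 60.6 and a change of 1.14 in WT. Ifitm6 (0.81), Chil1 (0.73) and Retnlg (0.55) were higher too, as Lcn2 was, while Chil3 was at -0.39, as Camp and Ngp were lower. In control cells, 17 of the 19 were lower in LNCKO than in WT and 2 were higher (43.3% and 56.7% of all genes). The median was -0.18, from Lrg1 at -0.49 to Orm1 at 0.23, the latter on 27 fragments in WT and 63 in LNCKO. With butyrate, 17 of 19 were again lower (35.8% of all genes), with a median of -0.30. Of these, 11 passed 1.2-fold (4.17% of all genes) and 2 passed 2-fold (0.25% of all genes), namely Mmp8 at -1.15 and Chil1 at -1.09. The response of LNCKO to butyrate had a median of -0.06 over these genes, 7 of which were higher and 12 lower (42.2% and 57.8% of all genes).

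Genes of mature neutrophils and of other cells moved beside these values, and their part in the members' differences was not tested. The 10 mature neutrophil surface genes had a median of 0.23 with butyrate in WT, with 8 higher and 2 lower (36.9% and 63.1% of all genes). Their summed FPKM was 129, 152, 121 and 135. Ly6g, the defining surface marker of mouse neutrophils, was at 4.04, 9.43, 2.99 and 3.79 FPKM, highest in WT butyrate as S100a9 and Lcn2 were. With butyrate in LNCKO, where most members were lower, the list went the other way. Of its genes, 7 were higher and 3 lower (42.2% and 57.8% of all genes), with a median of 0.18 and Ly6g at 0.26. For LNCKO against WT in control cells, 3 were higher and 7 lower (56.7% and 43.3% of all genes), with a median of -0.03. For LNCKO against WT with butyrate, where most members were lower, 7 of these 10 genes were lower (35.8% of all genes), with a median of -0.17 and Ly6g at -1.12. The 5 inflammatory monocyte genes had a median of 0.60 with butyrate in WT, with Fn1 at 1.18. Of them, 4 were higher and 1 lower (36.9% and 63.1% of all genes). For LNCKO against WT with butyrate their median was -0.57, with 5 of 5 lower (35.8% of all genes) and Fn1 at -1.25. Their summed FPKM was 883 to 1067, of which Ly6c2 alone gave 728 to 916. The 11 macrophage genes had a median of 0.19 with butyrate in WT, with 8 higher (36.9% of all genes). For LNCKO against WT with butyrate their median was -0.17, with 10 lower (35.8% of all genes). With butyrate in LNCKO, the macrophage genes had a median of 0.04, with 6 higher and 5 lower (42.2% and 57.8% of all genes). The inflammatory monocyte genes had a median of 0.10 there, with 4 higher and 1 lower.

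Eosinophil granule genes, all 6 of them, were lower with butyrate in LNCKO (57.8% of all genes), in the comparison where Mpo and Ltf were lower. Their median was -0.38, and their summed FPKM was 32.9 in LNCKO control and 23.4 in LNCKO butyrate. Prg2 stood at 21.5, 25.7, 21.5 and 14.7 FPKM. The basophil and mast cell list had a median of 0.52 for LNCKO against WT with butyrate, with 6 of 6 higher (64.2% of all genes) and Mcpt8 at 1.37. Its summed FPKM was 46.2, 34.8, 71.8 and 70.9. The 7 B cell genes were all lower with butyrate in WT (median -0.24), where 63.1% of all genes were lower. The 8 proliferation genes were all lower there too (median -0.24), with a summed FPKM of 68.7 and 58.5. Erythroid genes had a median of 1.27 for LNCKO against WT with butyrate, with Hba-a2 at 2.25, 2.48, 8.68 and 25.8 FPKM, while Alas2 reached at most 0.0374 FPKM and Car1 was listed at 0 in 3 libraries. All 6 stromal genes were lower in LNCKO than in WT control cells (median -0.51), where 43.3% of all genes were lower. Their summed FPKM was 9.76 and 2.60 in WT and LNCKO. Dendritic cell genes had medians from -0.10 to 0.09 and T cell genes from -0.02 to 0.20 over the 4 comparisons, with summed FPKM of 6.85 to 9.39 and of 3.88 to 4.69. Only 1 of 6 dendritic and 2 of 6 T cell genes reached a mean FPKM of 1. The 1 added to FPKM draws changes of such low genes towards 0, so these medians do not show that they were steady.

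Of 8 transcription factors of granulocyte development, Cebpe, the factor required for specific granules, had FPKM values of 12.9, 13.2, 13.5 and 9.93. It was lowest in LNCKO butyrate, with changes of -0.41 with butyrate in LNCKO and -0.38 for LNCKO against WT with butyrate. Of the specific granule genes, Ltf and Lcn2 were also lowest in LNCKO butyrate, as Mpo was, whereas Camp and Ngp were lowest in WT butyrate. Gfi1, a repressor that favours the granulocyte fate, stood at 1.71, 2.40, 2.38 and 1.96 FPKM. It was lowest in WT control like Elane, Prtn3 and Ctsg, but unlike Mpo, the remaining azurophil gene, which was lowest in LNCKO butyrate. Spi1, which encodes PU.1, varied from 8.94 to 9.79 FPKM and Cebpa from 35.7 to 37.3 FPKM. The list as a whole had medians between -0.08 and 0.06.

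**Figure D4:**
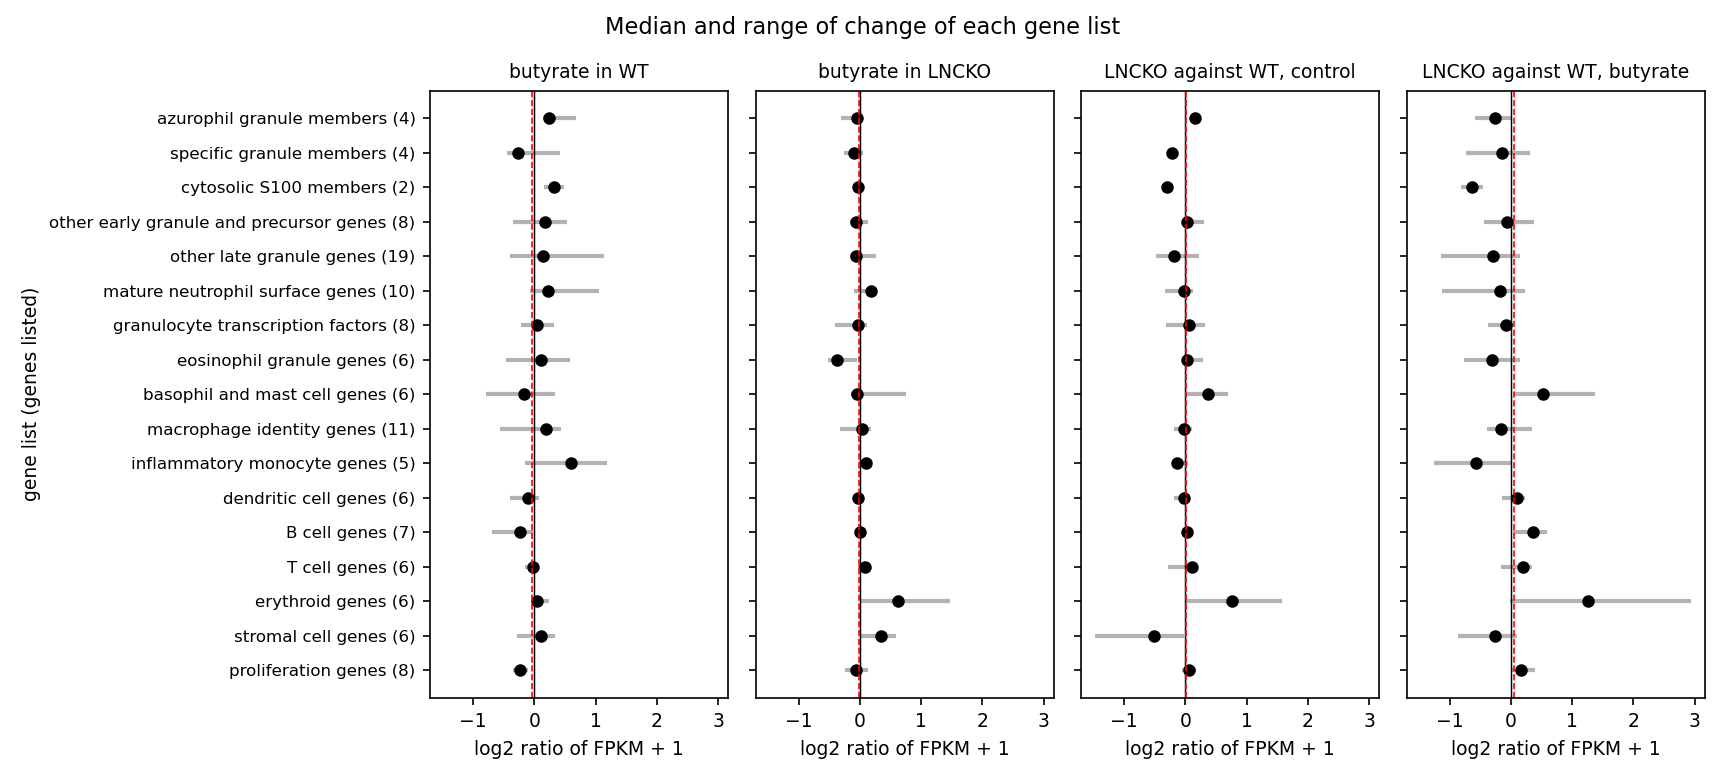
Median change (dots, log2 of the ratio of FPKM + 1) and range from the lowest to the highest gene (grey lines) of each gene list in the 4 comparisons, with the number of genes in parentheses; the dashed line is the median of the 6809 genes whose mean FPKM reached 1. With butyrate in WT the azurophil median (0.24) lies above and the specific median (-0.26) below the line, and in LNCKO both (-0.05 and -0.09) lie near it.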

How the data were processed

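RNA-seq was analysed in 4 libraries, 1 of each genotype (WT, LNCKO) and treatment (control, butyrate) of BMDMs. The authors deposited FPKM values per gene and no counts. The methods describe paired-end sequencing and analysis on the provider's web platform, and the submitters' processing notes name STAR 2.5.0c, Picard 1.126, bedtools 2.17.0, HTSeq 0.6.0 and DESeq2 3.0 with the builds GRCm38 and mm10, without their role. The names of the LNCKO columns do not spell genotype and were assigned through the library names and titles in the labels.

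For each library the total was searched that turns FPKM into whole fragments on the gene spans of GENCODE M21. Of 16342 genes matched to the annotation, 16093 (98.5%) were whole within 0.02 fragments in all 4 libraries, as were all 10 members. Because the FPKM length includes introns, levels of the 10 members were expressed per kilobase of exon, whereas sums over lists kept FPKM on the span. Changes were log2 ratios of FPKM + 1, which understates those of low genes, and counts over all genes used those with a mean FPKM of at least 1. Counts and medians of a list kept its genes below that mean. With 1 library per group no test was run, and exact Clopper-Pearson intervals at 95% cover counting error only. The recovery of totals and fragments and the calling of changes past 2-fold were tested on simulated data. Smaller changes, list medians, intervals, motif matches and the ranking of patterns were not tested in this way.

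The members and lists were chosen with earlier results of these data known. The genes named are the members, the highest and lowest gene of a list in a comparison and genes that define its cell type, and the genes most alike in pattern. Further named after their values were seen were Ctsc, Fcnb, Ifitm6, Retnlg, Chil1, Cebpa, Spi1, Ddx3y and Plppr3. Trac and Hbb-bs of the lists are not listed in the file. Alternatives were a pseudocount of 0.1, no filter or a mean FPKM of at least 5, scaling by the median ratio, rescaling of FPKM to a sum of 1000000, fragments per 1000000, and S100a8 and S100a9 counted as specific genes. Promoter windows were from RefSeq, and all 10 members matched. Python 3.11.15, numpy 2.4.6, pandas 2.3.3, scipy 1.17.1 and matplotlib 3.10.9 were used.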

Additional observations from a re-analysis of the deposited data

Results flagged for a closer look

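For 6 of the 10 members the butyrate change had opposite signs in WT and in LNCKO, with counting intervals of the FPKM ratio that left out 1 in both genotypes. The same held for 14.4% of the 6717 genes of whole fragments whose mean FPKM reached 1, and for 17.7% of the 2379 of them with at least 4869 fragments in every library, the fewest of any member. The difference between the genotypes was not tested, since each group had 1 library. The change in WT less that in LNCKO, on the log2 scale, was 0.71 for Elane and 0.63 for Mpo, both azurophil genes, which were higher with butyrate in WT and lower in LNCKO. It was 0.22 for Ctsg, 0.49 for Lcn2 and 0.19 for S100a8, in the same direction. Camp went the other way, lower with butyrate in WT and higher in LNCKO, with a difference of -0.50. Apart from Mpo (-0.32), the change of these genes in LNCKO was small, from -0.07 to 0.05, inside the central 95% of all genes there (-0.19 to 0.21). Prtn3, Ltf, Ngp and S100a9 did not meet both conditions.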

How the results depend on the processing

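Changes of single members moved by at most 0.06 on the log2 scale over 200 recomputed values, with 3 changes of sign, all of values near 0: Prtn3 with butyrate in LNCKO went from 0.012 to -0.0099 when rescaled to 1000000, and with libraries scaled by their median ratio S100a9 in that comparison went from -0.0078 to 0.012 and Prtn3 for LNCKO against WT with butyrate from 0.0093 to -0.047. Of 80 class medians and differences, 75 moved by less than 0.1, a tolerance set after the data were seen. With S100a8 and S100a9 among the specific genes, their median with butyrate in WT went from -0.26 to -0.013 and the azurophil excess from 0.50 to 0.25. For LNCKO against WT with butyrate that median went from -0.14 to -0.40 and the azurophil difference turned from -0.12 to 0.14. The mean of the specific genes in place of the median, added after the data were seen, was -0.14 with butyrate in WT. Rescaling to 1000000 shifted the median of all genes with butyrate in WT to -0.10.

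Counts of genes past 2-fold moved most. In the order butyrate in WT, butyrate in LNCKO, LNCKO against WT in control and with butyrate, they were 18, 7, 13 and 15 higher and 5, 5, 6 and 17 lower. With a pseudocount of 0.1, 29, 13 and 28 were higher in the first, the second and the last, and 12, 13 and 29 lower in all but the second. With a mean FPKM of at least 5 they were 9, 4, 5 and 9 higher and 3, 1, 0 and 9 lower. Rescaled to 1000000 they were 91, 57, 57 and 87 higher and 64, 38, 71 and 84 lower, and as fragments per 1000000 they were 74, 43, 34 and 82 higher and 39, 26, 65 and 87 lower. With no pseudocount, added later, 31, 16 and 31 were higher in the first, the second and the last and 18, 14 and 30 lower in all but the second. The cause of these moves was not tested.

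No paired analysis was possible because each comparison has 1 library a side. The library names in the labels carry the same number in every library, and its meaning is not given in the sources used here. An additive fit of genotype and butyrate over the 4 libraries, which assumes 1 butyrate effect in both genotypes, was not run. Leaving a library out would have emptied its group. Depth limits single members little, since the fewest fragments of a member were 4869, and the spread between cultures is unknown.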

Other observations

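Genes other than the members, those of the other lists included, were ranked by how alike their pattern over the 4 libraries was to the mean pattern of each class. The measure was the root mean square difference of log2(FPKM + 1) after centring, among 2534 genes whose mean FPKM reached 5. Closest to the azurophil genes were Mybbp1a (0.018), Mrpl12 (0.020), Amd2 (0.021), Ranbp1 (0.022) and Ncl (0.023), against a median of 0.152 over the genes compared. Ncl stood at 32.1 FPKM without and 41.2 FPKM with butyrate in WT, and at 35.0 and 33.9 FPKM in LNCKO. Closest to the specific genes were Tlr2, Nfam1 and Man2b1 (0.021 each), then Ccdc71 and Med11 (0.035 each), against a median of 0.138. Nfam1 stood at 8.46, 7.45, 6.95 and 6.70 FPKM in the same order. With 4 libraries many genes share such a pattern, so this is a description of these libraries only.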
